A study of Mus musculus with 6 samples.

Results

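The Hippo pathway core was read by 25 probe sets of 9 genes, among 45037 probe sets measured on 6 expression arrays of mouse hematopoietic stem cells (HSCs). The members were taken as every probe set of the array annotation with exactly 1 gene symbol out of Stk3, Stk4, Sav1, Mob1a, Mob1b, Lats1, Lats2, Yap1, Wwtr1 and Tead1. Of these 10 genes, Stk3 had no probe set under its symbol and was not analysed here. The genes were chosen by measured values, namely the opposite shifts of Mob1a and Yap1 in the comparison reported below, so the differences are a description and carry no test. Of the arrays, 3 held RNA from adult knock-in mice with the genotype PU.1 ki/ki and 3 held RNA from adult wild-type mice. All cells were sorted as lin-, sca1+, ckit+, CD150+ and CD48-, surface markers that enrich long-lived stem cells. The gene Spi1 encodes PU.1, a member of the ETS family that directs blood cell fate, and the title of the series concerns how PU.1 restrains the proliferation of these cells through its own regulation. The labels describe neither the knock-in allele nor strain, sex or pooling of the mice. Whether the replicates are different animals is not stated, so a p-value covers the spread between arrays alone, which may be technical.

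The Hippo pathway is a kinase cascade that limits growth. The kinases MST1 and MST2 (genes Stk4 and Stk3), with the scaffold SAV1, activate the kinases LATS1 and LATS2 and their adaptors MOB1A and MOB1B. LATS kinases phosphorylate the coactivators YAP and TAZ (genes Yap1 and Wwtr1) and keep them out of the nucleus. Unphosphorylated YAP and TAZ bind TEAD transcription factors and switch on targets such as Ccn1 and Ccn2. In blood, MST1 is best known for its role in the survival and trafficking of lymphocytes.

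Values below are intensities of the deposited table, which are whole numbers on a linear scale with a minimum of 10. Array medians lay between 41 and 46. A difference is the PU.1 ki/ki mean minus the wild-type mean of log2(intensity + 1), from a linear model fitted to all probe sets, and it understates the change of dim ones. SD is over n = 3 arrays per group. The intensity of a probe set depends on its own probes, so levels are compared only between arrays and not between probe sets. In these sorted populations, fewer cells that express a gene and less RNA per cell cannot be told apart.

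Wild-type replicates 2 and 3 stood apart from the other 4 arrays. Across all probe sets, log2 values of the PU.1 ki/ki arrays correlated with each other at r = 0.940 to 0.951 and with wild-type replicate 1 at 0.919 to 0.926, whereas every pair that held wild-type replicate 2 or 3 gave 0.831 to 0.880. Bright probe sets were those with a median of at least 500 on the other 5 arrays. The share of them at least 4-fold below that median was 0.117 to 0.215% on the 3 arrays of PU.1 ki/ki cells, 1.2% on wild-type replicate 1, and 11.5% and 11.3% on wild-type replicates 2 and 3. Values against wild-type replicate 1 alone are therefore given for the members that differed most. Spi1 had 170, 212 and 161 on PU.1 ki/ki arrays, against 158, 195 and 199 on wild-type arrays, and the labels do not place the knock-in relative to its probe set. Of the HSC markers 8 of 10 had a probe set, and each exceeded 100 on at least 1 array. Those below 100 on some array are named, outside the rule for naming genes. Slamf1 read 696, 1525 and 170 on PU.1 ki/ki arrays, against 440, 54 and 42 on wild-type arrays. Fgd5 and Hoxb5 read 67 and 78 on wild-type replicate 2. The summed intensity of the 8 markers was 6269 to 7617 on PU.1 ki/ki and 4799 to 6972 on wild-type arrays.

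The stretches before the gene starts of Mob1a, Mob1b and Yap1 are shown because these genes had the largest differences between the groups. They are the 250 bases upstream of each start in RefSeq's annotation of GRCm38.p6, written along the gene's strand. They lie at chr6:83325789-83326038 on the plus strand, chr5:88720621-88720870 on the plus strand and chr9:8004597-8004846 on the minus strand. Capitals mark GAGGAA, the purine box of PU.1 sites, and GGAATG, the core of TEAD sites, each searched on both strands.
Mob1a: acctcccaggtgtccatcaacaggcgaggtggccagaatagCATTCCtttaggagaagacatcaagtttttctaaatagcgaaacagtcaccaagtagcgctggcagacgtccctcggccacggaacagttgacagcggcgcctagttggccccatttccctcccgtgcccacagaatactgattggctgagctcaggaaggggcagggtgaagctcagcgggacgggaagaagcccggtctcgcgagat
Mob1b: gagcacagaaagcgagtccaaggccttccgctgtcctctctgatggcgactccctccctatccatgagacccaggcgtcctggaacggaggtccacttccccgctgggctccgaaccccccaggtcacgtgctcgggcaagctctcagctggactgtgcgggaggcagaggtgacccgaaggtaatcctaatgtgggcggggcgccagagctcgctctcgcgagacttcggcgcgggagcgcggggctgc
Yap1: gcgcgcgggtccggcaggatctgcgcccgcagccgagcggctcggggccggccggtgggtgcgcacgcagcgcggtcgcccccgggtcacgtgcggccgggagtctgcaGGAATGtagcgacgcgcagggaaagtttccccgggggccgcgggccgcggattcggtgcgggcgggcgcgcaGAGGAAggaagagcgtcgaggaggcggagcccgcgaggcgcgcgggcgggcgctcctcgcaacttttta
The Yap1 stretch held 1 GAGGAA, starting 69 bases before the gene start, and 1 GGAATG, starting 141 bases before it. These matches do not overlap. The Mob1a stretch held 1 GGAATG, on the opposite strand, and the Mob1b stretch held neither. Of 32851 such stretches over all genes, 23.3% held GAGGAA and 12.6% held GGAATG. Among the 10 stretches found for 8 member genes, 3 held GAGGAA and 5 held GGAATG, with 2 overlapping stretches of Wwtr1 counted separately. A match is a run of letters and shows no binding.

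Mob1a and Mob1b, the paralogous adaptors that bind and activate LATS kinases, each had 1 probe set with a large difference and others with little. Mob1a probe set 1424484_at read 1698, 1696 and 1610 on PU.1 ki/ki arrays, against 364, 171 and 40 on wild-type replicates 1, 2 and 3. The groups did not overlap, the PU.1 ki/ki values were nearly equal, and the wild-type values were spread widely. The difference was 3.61 ± 0.83 (SE), a 12.2-fold higher level in PU.1 ki/ki. Against wild-type replicate 1 alone it was 2.19, or 4.57-fold.

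The 2 other Mob1a probe sets read otherwise. Probe set 1424483_at, which the platform derives from the same sequence record as 1424484_at, read 504, 580 and 562 on PU.1 ki/ki arrays, against 878, 880 and 40 on wild-type arrays. Its wild-type replicates 1 and 2 lay above all PU.1 ki/ki arrays, and wild-type replicate 3 lay far below them at the same intensity of 40 as on 1424484_at. On wild-type replicate 3 this probe set too was among the bright ones at least 4-fold below the other arrays' median. The difference was 0.79, and -0.68 without wild-type replicate 3. Probe set 1423782_at read 737, 587 and 875 on PU.1 ki/ki arrays, against 704, 838 and 915 on wild-type arrays, a difference of -0.17 with overlapping groups. The higher Mob1a signal was thus read by 1 of 3 probe sets.

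Mob1b probe set 1430564_at read 543, 321 and 396 on PU.1 ki/ki arrays, against 122, 30 and 53 on wild-type arrays. Every PU.1 ki/ki array lay above every wild-type array, with a difference of 2.80 ± 0.56 (SE). Against wild-type replicate 1 alone the difference was 1.74. The other probe set, 1455184_at, read 117, 325 and 192 against 142, 258 and 103, and its groups overlapped at a difference of 0.32. The large shift of Mob1b was likewise confined to 1 of its 2 probe sets.

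Yap1, the coactivator at the end of the cascade, had 1 probe set that differed in the opposite direction to those of Mob1a and Mob1b. Probe set 1448363_at read 29, 33 and 50 on PU.1 ki/ki arrays, against 228, 160 and 368 on wild-type arrays. The groups did not overlap, and the brightest PU.1 ki/ki array, at 50, lay well below the dimmest wild-type array, at 160. The difference was -2.68 ± 0.38 (SE), a 6.4-fold lower level in PU.1 ki/ki. It was -2.62 against wild-type replicate 1 alone, so it was about as large without the wild-type arrays that stood apart. The other Yap1 probe set, 1416487_a_at, read 49, 47 and 49 on PU.1 ki/ki arrays, against 93, 19 and 23 on wild-type arrays. There the PU.1 ki/ki arrays lay between the wild-type arrays, with a difference of 0.47 overall and -0.93 against wild-type replicate 1 alone.

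**Figure D1:**
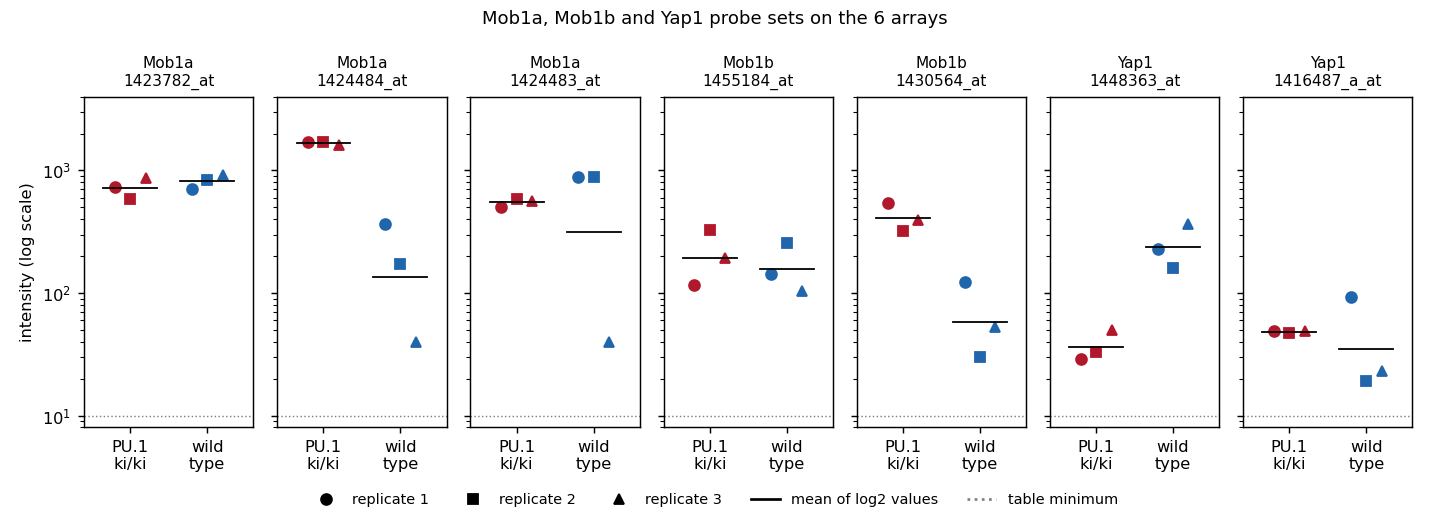
Intensity on a log scale of each Mob1a, Mob1b and Yap1 probe set on the 3 PU.1 ki/ki arrays (red, left) and the 3 wild-type arrays (blue, right), with replicates as marker shapes, the mean of log2 values as a bar and the table minimum of 10 dotted. Mob1a 1424484_at, Mob1b 1430564_at and Yap1 1448363_at separate the groups, and the other 4 probe sets do not.

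Wwtr1 encodes TAZ, the paralog of YAP, and its probe sets were dim. Probe set 1417817_a_at read 23, 19 and 31 on PU.1 ki/ki arrays, against 62, 27 and 154 on wild-type arrays, a difference of -1.38 with 1 wild-type array inside the PU.1 ki/ki range. Probe set 1437155_a_at read 20, 17 and 18 against 33, 19 and 46, a difference of -0.72, also with overlap. Both were highest on wild-type replicate 3, as was Yap1 1448363_at. Probe set 1417818_at read 60, 56 and 51 against 48, 211 and 27, and its difference of -0.23 was 0.61 without wild-type replicate 2.

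Tead1, the DNA-binding partner of YAP and TAZ among the members, was close to the table's minimum on every array. Probe set 1429556_at read 12, 11 and 10 on PU.1 ki/ki arrays, against 16, 22 and 13 on wild-type arrays. Probe set 1423434_at read 11 on each PU.1 ki/ki array, against 16, 10 and 22 on wild-type arrays. The first did not overlap between groups and the second did, but values this near the minimum have no reliable size, and no fold is given. All 5 probe sets of Wwtr1 and Tead1 had differences below 0.

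Cells of the vessel wall and stroma use YAP, TAZ and TEAD1, so their markers are given beside these values. All 10 endothelial markers had a probe set, 6 with differences above 0 and 4 below 0 (median 0.11), and their summed intensity was 1902 to 2722 on PU.1 ki/ki arrays and 1607 to 2275 on wild-type arrays. Cdh5, the defining cadherin of endothelium, read 17 to 23 on PU.1 ki/ki and 15 to 32 on wild-type arrays, and Plvap 13 to 21 and 10 to 24. Both lay near the table's minimum in both groups. Some other endothelial markers lay well above it. Egfl7 read 338, 472 and 389 on PU.1 ki/ki arrays, against 440, 541 and 738 on wild-type arrays (-0.50). Pecam1 read 94, 51 and 219 against 102, 121 and 312 (-0.62). Emcn read 264, 304 and 210 against 80, 370 and 431 (0.13), and Tie1 216, 179 and 195 against 136, 325 and 118 (0.18). All 10 stromal markers had a probe set, 6 with differences above 0 and 4 below 0 (median 0.47), with a summed intensity of 1159 to 2674 on PU.1 ki/ki and 506 to 2033 on wild-type arrays. The collagen Col3a1 read 14 to 16 on PU.1 ki/ki and 10 to 14 on wild-type arrays, and Lum 16 to 21 and 10 to 17, again near the minimum throughout. Col1a2, another collagen chain, read 489 to 1023 on PU.1 ki/ki and 245 to 1145 on wild-type arrays. Pdgfrb, the PDGF receptor of mural cells, read 60, 93 and 116 on PU.1 ki/ki arrays, against 93, 427 and 352 on wild-type arrays. Cldn5, an endothelial tight junction protein, read 52, 55 and 31 against 33, 104 and 238. Both were highest on wild-type replicates 2 and 3. Other markers of these lists went the other way. Vwf, the clotting factor of endothelium that megakaryocytes and some HSCs also make, read 815, 1435 and 1357 on PU.1 ki/ki arrays, against 617, 490 and 298 on wild-type arrays, without overlap (1.38). Col1a1, Cxcl12 and Robo4 had differences of 2.38, 1.46 and 0.89 with overlapping groups. Their part in the Yap1 and Wwtr1 values was not tested.

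Of the kinases at the top of the cascade only Stk4 had probe sets, and it was read at clear intensities in both groups. Stk4, encoding MST1, had 3 probe sets, all with differences above 0. Probe set 1421107_at read 649, 508 and 683 on PU.1 ki/ki arrays, against 305, 413 and 214 on wild-type arrays, without overlap and with a difference of 1.02 ± 0.29 (SE). That difference was 0.99 against wild-type replicate 1 alone. Probe set 1436015_s_at read 1724, 1240 and 1818 against 1347, 1407 and 774, a difference of 0.47. Its suffix marks probes that can match more than 1 transcript. Probe set 1434159_at read 635, 782 and 1447 against 712, 738 and 651, and its difference of 0.36 was 0.01 without PU.1 ki/ki replicate 3. Sav1, the scaffold that links MST to LATS kinases, read 251, 250 and 337 against 179, 114 and 494 on 1416075_at, and 135, 394 and 292 against 331, 314 and 80 on 1448204_at. Differences were 0.35 and 0.30, each within the spread between arrays, and each was below 0 when 1 wild-type array was left out (-0.11 and -0.37).

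Lats1, a kinase that phosphorylates YAP and TAZ, had 2 probe sets with similar differences. Probe set 1427679_at read 620, 552 and 339 on PU.1 ki/ki arrays, against 161, 347 and 115 on wild-type arrays, a difference of 1.39 ± 0.49 (SE). Probe set 1435739_at read 449, 234 and 149 against 104, 199 and 36, a difference of 1.45 ± 0.76 (SE). In both, wild-type replicate 2 exceeded the lowest PU.1 ki/ki array, so the groups overlapped. Against wild-type replicate 1 alone the differences were 1.59 and 1.26.

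Lats2, the paralog of Lats1 and itself a YAP target, had 6 probe sets that did not move together. A further probe set was assigned to Lats2 and a neighbouring gene together and was left out. Of the 6, 4 had differences above 0 (0.16 to 0.67) and 2 below 0 (-0.59 and -1.01), and all overlapped between groups. The dim probe set 1419679_at read 16, 18 and 22 on PU.1 ki/ki arrays, against 57, 47 and 21 on wild-type arrays. Probe set 1439441_x_at, whose suffix marks possible cross-hybridisation, read 74, 106 and 157 against 306, 303 and 45. Probe set 1437101_at read 67, 149 and 102 against 216, 45 and 25, and its difference of 0.67 was -1.09 against wild-type replicate 1 alone.

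**Figure D2:**
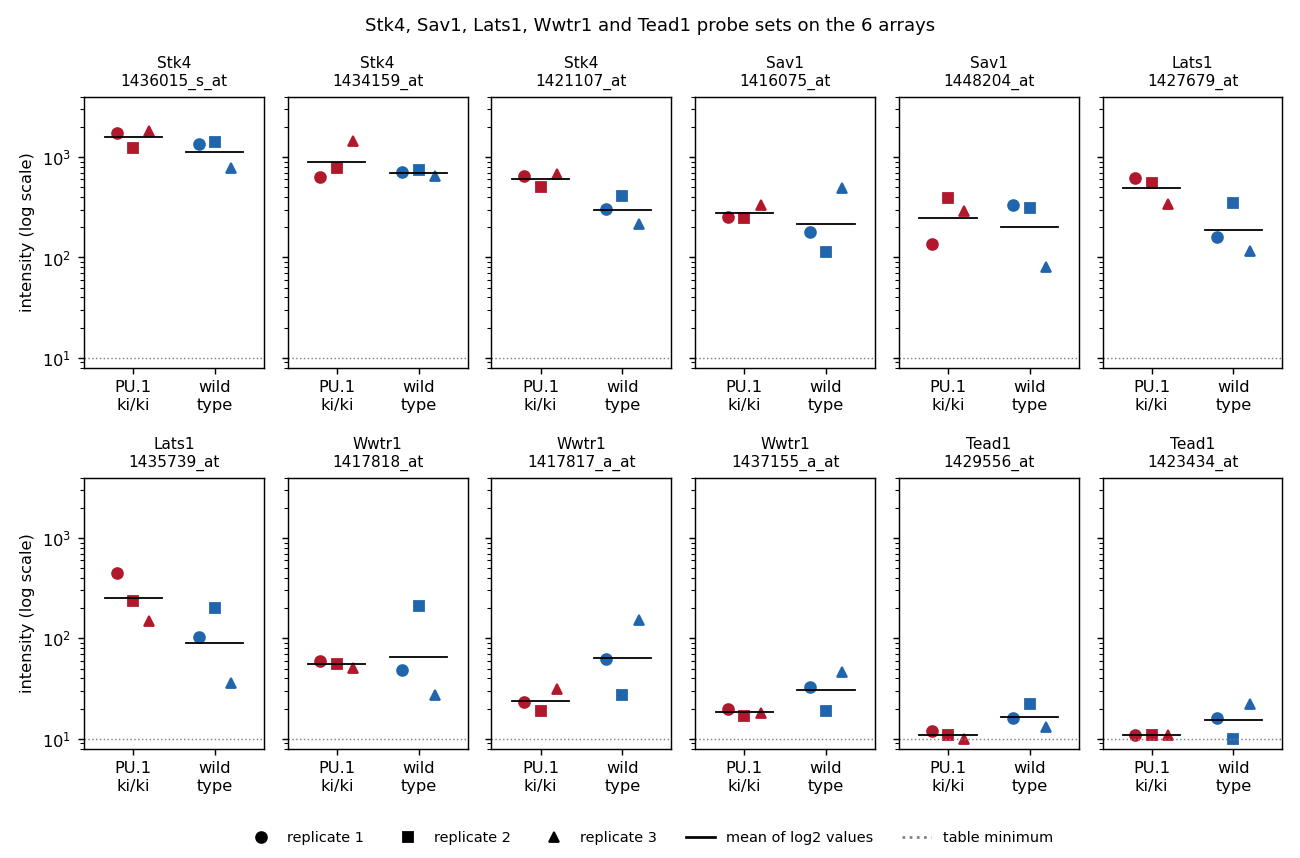
Intensity on a log scale of each Stk4, Sav1, Lats1, Wwtr1 and Tead1 probe set on the 3 PU.1 ki/ki arrays (red, left) and the 3 wild-type arrays (blue, right), with the mean of log2 values as a bar and the table minimum of 10 dotted. The groups separate for Stk4 1421107_at and, close to the minimum, for Tead1 1429556_at.

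Over the whole set, the groups did not overlap in 5 of 25 probe sets, 3 with higher and 2 with lower PU.1 ki/ki values. These were Mob1a 1424484_at, Mob1b 1430564_at and Stk4 1421107_at, and Yap1 1448363_at and Tead1 1429556_at. Among all probe sets 12.1% did not overlap, 6.62% higher and 5.46% lower. In the limma fit across all probe sets, 0 of 25 had an adjusted p under 0.05 (background 0%), and their adjusted p ran from 0.419 to 0.955 after Benjamini-Hochberg adjustment over all 45037. At an unadjusted p under 0.05 there were 5 of 25, 4 higher and 1 lower, where the background was 8.28%. Because this contrast was in view when the genes were chosen, nothing is read from these shares. By sign, 16 probe sets had differences above 0 and 9 below 0, with a median of 0.35 where the median over all probe sets was 0.00. Of the 25, 17 were at or above the median brightness of all probe sets. Over all probe sets of at least that brightness the median difference was 0.16.

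Probe sets of a gene often disagreed. Each of the 9 genes had at least 2 probe sets, and for Mob1a, Lats2 and Yap1 they had both signs. The range of the differences within a gene was 3.78 for Mob1a, 3.15 for Yap1, 2.48 for Mob1b, 1.69 for Lats2, 1.16 for Wwtr1 and 0.66 for Stk4. For Tead1, Lats1 and Sav1 it was 0.12, 0.06 and 0.06. Probe sets can read different stretches or forms of a transcript, and which these are was not analysed here.

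**Figure D3:**
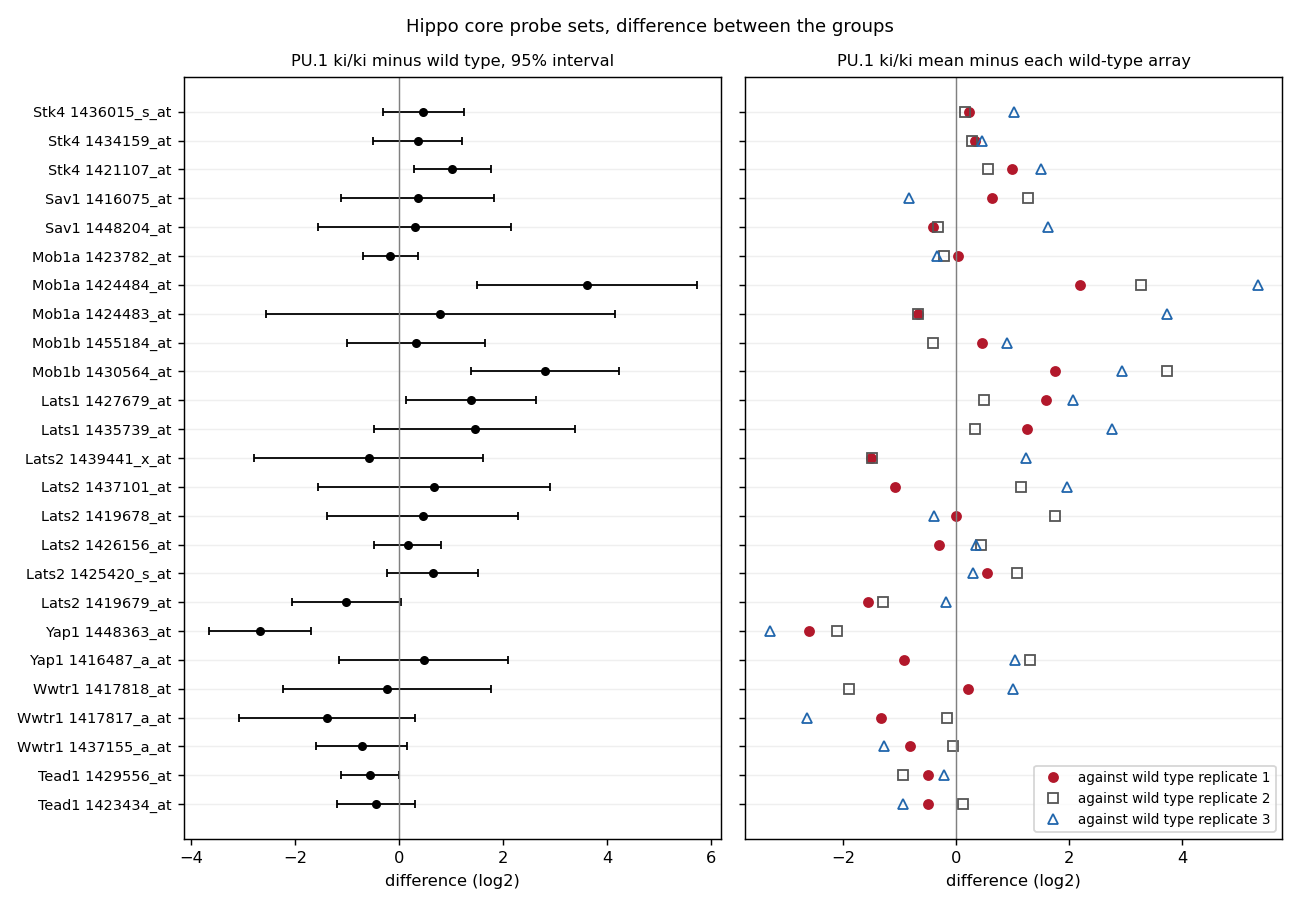
Differences of the 25 probe sets in log2, at left PU.1 ki/ki minus wild type with the 95% interval of the limma fit, and at right the PU.1 ki/ki mean minus each wild-type array. Mob1a 1424484_at, Mob1b 1430564_at, Lats2 1425420_s_at and all Stk4 and Lats1 probe sets lie right of 0 against each wild-type array, and Yap1 1448363_at, Lats2 1419679_at, Wwtr1 1417817_a_at, Wwtr1 1437155_a_at and Tead1 1429556_at lie left of 0 against each.

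The members varied less among PU.1 ki/ki than among wild-type arrays. The SD of log2 values had a median of 0.30 among PU.1 ki/ki arrays and 0.81 among wild-type arrays over the 25 probe sets, and 0.32 and 0.56 over all probe sets. It was wider in wild type for 21 of 25 members (84%), and for 71.7% of all probe sets. Each PU.1 ki/ki array gave the lowest of the 6 values for 1 to 3 members and the highest for 3 to 5. Wild-type replicate 3 gave the lowest for 11 members and the highest for 6. Wild-type replicate 2 gave the lowest for 7 and the highest for 3, and wild-type replicate 1 the lowest for 0 and the highest for 5. Over all probe sets, ties included, PU.1 ki/ki arrays gave the lowest value for 19.4 to 19.5% and the highest for 15 to 16.5%. Wild-type replicates 1, 2 and 3 gave the lowest for 23.2%, 28.5% and 31.4% and the highest for 19%, 24.5% and 25.8%.

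By the root mean square distance between log2 profiles centred over the 6 arrays, the genes most like Mob1a 1424484_at among 16336 were Zfp760, Ctdnep1, Btrc, Gdf3 and Zfhx3, at distances of 0.47 to 0.52 where the median gene was at 1.95. Btrc, encoding an F-box protein that directs substrates to ubiquitination, read 481, 298 and 336 on PU.1 ki/ki arrays, against 154, 73 and 11 on wild-type arrays. These 5 genes were all lowest on wild-type replicate 3 and next lowest on wild-type replicate 2, as was Mob1a 1424484_at. Genes chosen by likeness share that order through the choice. Most like Yap1 1448363_at were Lama5, Tigar, Auts2, H3c7 and Dusp4, at distances of 0.23 to 0.49 where the median was 1.38. Lama5, a laminin chain of basement membranes, read 20, 27 and 39 on PU.1 ki/ki arrays, against 127, 91 and 300 on wild-type arrays. Dusp4, a phosphatase of MAP kinases, read 75, 69 and 73 against 343, 152 and 886.

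Among the wider Hippo network, 0 of 69 measured genes, of 71 listed in 5 lists, passed the threshold. The lowest adjusted p was 0.463 (limma, over all probe sets), and 2 genes had an unadjusted p under 0.05, 1 higher and 1 lower, with a background of 8.61% over genes. Here each gene was represented by its brightest probe set, on average over the arrays. Without overlap were 2 higher and 1 lower gene (4.35% of 69), against 12.7% of 18193 genes.

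Genes that activate or scaffold the kinases upstream gave 14 differences above 0, 5 below 0 and 1 of 0, over 20 of 22 listed, with a median of 0.32 against 0.01 over all genes. That list median was 0.075 without wild-type replicate 2 and -0.03 against wild-type replicate 1 alone. Mink1, a kinase of the MAP4K group, read 518, 146 and 244 on PU.1 ki/ki arrays, against 207, 158 and 60 on wild-type arrays (1.07). Ptpn14, a phosphatase that binds YAP, read 29, 693 and 650 against 695, 60 and 43, so both groups held high and low arrays (0.95). Its difference was above 0 in 2 of 3 probe sets. Dchs1 and Fat1, atypical cadherins, had the lowest differences (-0.87 and -0.46). Fat4 was at the table's minimum on all arrays.

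Genes listed here as negative regulators of the cascade, a role not tested, gave 8 differences above and 8 below 0 over 16 genes, with a median of -0.04. Rassf2, a RASSF scaffold that binds MST kinases, read 1085, 418 and 660 on PU.1 ki/ki arrays, against 209, 227 and 403 on wild-type arrays, with no overlap by a narrow margin (1.32, adjusted p = 0.574, limma). Of its 3 probe sets 2 had that sign. Ajuba, a LIM protein that inhibits LATS, read 51, 72 and 83 against 25, 67 and 21 (1.01). Sike1 and Slmap, of the STRIPAK phosphatase complex that opposes MST kinases, differed by -0.86 and -0.57. Of 6 Sike1 probe sets 4 had that sign, and of 3 Slmap probe sets 1 did.

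The MOB paralogs outside the core and the NDR kinases gave 1 difference above 0 and 6 below 0, with a median of -0.28. Mob3c read 145, 122 and 173 on PU.1 ki/ki arrays, against 116, 372 and 459 on wild-type arrays (-0.89, the sign of 1 of its 2 probe sets). Stk38l, an NDR kinase, read 123, 137 and 35 against 180, 34 and 229 (-0.41, the sign of 1 of its 3 probe sets). Mob3a was the gene above 0 (0.15). With all probe sets of a gene averaged, the median was 0.15, so the sign of this list rests on the choice of probe set.

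Other TEAD factors and Vgll cofactors gave 4 differences above 0 and 3 below 0, with a median of 0.43 that was -0.13 without wild-type replicate 2. Of these 7 genes 5 stayed below 100 on every array. Tead2 read 64, 106 and 77 on PU.1 ki/ki arrays, against 44, 10 and 73 on wild-type arrays (1.30). Vgll1, a TEAD cofactor, read 38, 43 and 42 against 29, 26 and 11 without overlap (0.97). Tead3 and Tead4 differed by -0.26 and -0.24 at intensities of 14 to 41.

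Targets of YAP, TAZ and TEAD gave 13 differences above 0 and 10 below 0 over 23 genes, with a median of 0.15. That median was -0.02 without wild-type replicate 3, and also -0.02 with all probe sets of a gene averaged. Dock5, an exchange factor for Rac, was the gene of the wider network with the lowest p. It read 137, 112 and 227 on PU.1 ki/ki arrays, against 491, 395 and 639 on wild-type arrays, without overlap (-1.71 ± 0.34 SE, adjusted p = 0.463, limma). Of its 3 probe sets the other 2 did not share that sign. Gadd45b, a stress-response gene, read 86, 54 and 79 against 79, 155 and 137 (-0.72, the sign of 1 of its 3 probe sets). Ajuba, also on this list, and Axl, a receptor tyrosine kinase that read 166, 147 and 62 against 34, 81 and 70, had the highest differences (1.01 and 0.98). Axl had that sign in 1 of its 2 probe sets. Outside the rule for naming genes, and chosen after their values were seen, Ccn2 read 19 to 27 on PU.1 ki/ki and 11 to 21 on wild-type arrays, Ccn1 25 to 33 and 11 to 38, and Ankrd1 15 to 18 and 12 to 21. These commonly used YAP targets were thus close to the minimum in both groups, and 12 of 23 targets stayed below 100 on every array.

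**Figure D4:**
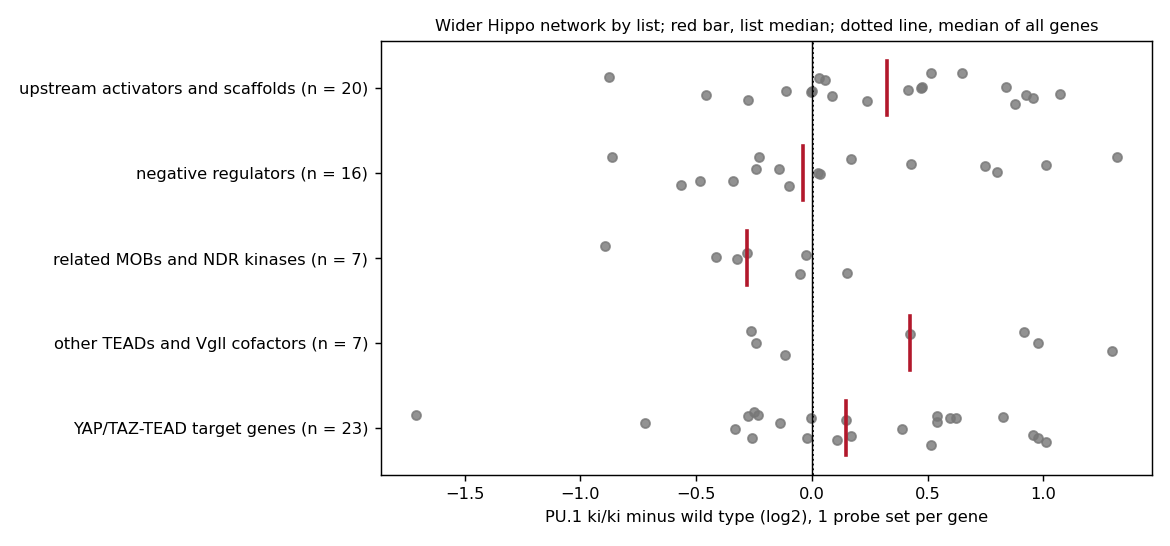
Difference in log2, PU.1 ki/ki minus wild type, of each gene (point) in 5 lists of the wider Hippo network, with the list median as a red bar and the median of all genes dotted. Medians lie between -0.28 and 0.43, and Dock5, at -1.71 among the targets, is the point farthest from 0.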

How the data were processed

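RNA of sorted adult HSCs was hybridised to single-colour Affymetrix arrays, after Trizol extraction and biotin labelling per the labels' protocols. Per the submitters' processing notes, the deposited intensities were made by the authors with RMA, whose version is not given in the sources used here. Output of that method is usually on a log2 scale, but these are whole numbers on a linear scale from 10 up. How they came to be so is likewise not stated. The description field of the samples speaks of embryos, against every other label, and was ignored. Titles gave the groups and replicate numbers.

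The table's 64 control probe sets were dropped from its 45101 entries. The platform annotation gave 1 symbol for 34945 probe sets and several for 932, which stayed unnamed. Without further normalization, log2(intensity + 1) was fitted in limma 3.58.1 (R 4.3.3) with genotype as the only term, and p-values were adjusted over 45037 probe sets (Benjamini-Hochberg, threshold 0.05). The fit was also run on simulated data with 1 spread common to all arrays, unlike these data, so that run checked the code alone. Lists used the brightest probe set of each of 18193 genes, and list symbols were also matched through RefSeq gene numbers and synonyms (GRCm38.p6, names only). Every sample column was used. The members and lists were chosen with earlier results of these data known. Named were all members, in each list the 2 highest and 2 lowest genes, the 5 genes most like Mob1a and like Yap1, and endothelial and stromal markers. Marker lists of other blood cells stand among the other observations. Alternatives were a further quantile normalization, centring on array medians, a pseudocount of 16, a filter on dim probe sets, a trended and robust prior, array weights, replicate numbers as a block, single arrays or wild-type replicates 2 and 3 left out, and the mean of a gene's probe sets. Precision is limited by the number of arrays.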

Additional observations from a re-analysis of the deposited data

How the results depend on the processing

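Under all 14 alternative fits, 0 of all probe sets, 0 of the Hippo core and 0 of the wider network had an adjusted p under 0.05. With the replicate block the count was also 0, and unadjusted p-values under 0.05 numbered 3369, against 3731 without it. Deviations of same-numbered arrays from their group means correlated at -0.0159, 0.0207 and -0.0168, and those of unlike number at -0.0147 to 0.0291. With 3 arrays per group, and 2 wild-type arrays that stood apart, these values cannot decide whether the numbers pair the arrays. Core probe sets without overlap numbered 5 in all, 5 after a further quantile normalization, 6 after centring, 6 to 11 with single arrays left out and 19 against wild-type replicate 1 alone, where fewer arrays make separation easier. Of the 25 core probe sets 15 kept the sign of their difference in every fit and 10 did not. Mob1a 1424484_at ranged from 2.19 to 4.31, Mob1b 1430564_at from 1.74 to 3.33 and Yap1 1448363_at from -2.96 to -2.27. Lats1 1427679_at ranged from 1.04 to 1.83 and Lats1 1435739_at from 0.79 to 2.01. Those that changed sign were 2 of Mob1a, 1 of Mob1b, 1 of Yap1, both of Sav1, 3 of Lats2 and 1 of Wwtr1, each only when arrays were left out. With centring, the median over all probe sets was -0.11. Against wild-type replicate 1 alone, list medians were between -0.13 and 0.02.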

Other observations

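Markers of other blood cells, which use several Hippo genes, gave the following summed intensities. Of T and NK cell markers 6 of 6 had a probe set, summing to 250 to 321 on PU.1 ki/ki arrays and 425 to 676 on wild-type arrays, without overlap, with 5 of 6 genes lower and 0 passing (limma, 1 at an unadjusted p under 0.05). Of these 6 markers 4 stayed below 100 on every array, and 1 marker alone read 481 on wild-type replicate 1, where the sum was 676. Macrophage markers (5 of 5) summed to 447 to 1382 on PU.1 ki/ki and 169 to 547 on wild-type arrays, all 5 with differences above 0 and 0 passing (1 at an unadjusted p under 0.05). Neutrophil markers (7 of 7) summed to 13764 to 20560 on PU.1 ki/ki and 17826 to 23721 on wild-type arrays, all 7 with differences below 0 and 0 passing (1 at an unadjusted p under 0.05). The ranges of these last 2 lists overlapped between the groups. Megakaryocyte markers (5 of 5) summed to 1038 to 2456 on PU.1 ki/ki and 681 to 1591 on wild-type arrays. B cell markers (5 of 6) gave 333 to 410 on PU.1 ki/ki and 270 to 811 on wild-type arrays. Erythroid markers (3 of 5) gave 234 to 243 on PU.1 ki/ki and 122 to 225 on wild-type arrays, without overlap. Of these 3 genes 1 was higher and 2 lower, with 0 passing (limma, 2 at an unadjusted p under 0.05, 1 higher and 1 lower). The part of these cells in the values of Mob1a, Mob1b, Stk4 and Lats1 was not tested.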
